A study of Homo sapiens with 23 samples.

Results

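The proteasome genes described here are the 48 genes whose symbol is PSM, a letter from A to G and a number, out of 61217 genes listed in each of 6 deposited comparison tables. Pseudogene symbols were left out, and a member was read in a table only where its average log2 CPM (read counts scaled to library size, averaged over the libraries of that table) reached 0. This kept 45 members in each CaSki table and 42 in each C-33A table. PSMA2, an alpha subunit, PSMA8, a testis alpha subunit, and PSMB11, a thymus catalytic subunit, were left out everywhere. PSMB3, PSMB8 and PSMB9 were also left out in C-33A. The members nearest the limit were PSMB9 at 0.97 to 1.25 and PSMA2 at -1.83 to -1.57 in the authors' deposited tables for CaSki. In the authors' deposited tables for C-33A they were PSMC1 at 0.54 to 0.68 and PSMA2 at -0.95 to -0.85.

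PolyA RNA was sequenced from 2 established cervical carcinoma lines, CaSki, which is HPV-positive, and C-33A, which is HPV-negative. Cells of each line received 100 nM of a synthetic microRNA, mimicking miR-23b-3p, miR-124-3p or miR-218-5p, or 100 nM of a negative control. Each of the 8 groups holds 3 samples, except C-33A with miR-124-3p, which holds 2. The comparisons ask which transcripts differed between each mimic and the control of the same line. Nothing in the labels tells separate cultures from repeat samples, and the p-values cover only sample-to-sample spread, which may be technical. The sample titles carry replicate numbers that recur across the control and the mimics of a line. C-33A with miR-124-3p lacks the lowest of them. Whether equal numbers mark matched sets is not stated, and no pairing was used here. Values per sample were not analysed here, depth per sample is unknown, and the fold changes, p-values and FDRs below are the authors' own statistics unless a computation from them is named. Each SE was recovered from the authors' fold change and p.

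The proteasome degrades proteins that carry ubiquitin chains. Its core is a barrel of alpha and beta rings with the catalytic sites on beta subunits, and its regulatory particle has a base of ATPases that unfold the substrate and a lid that removes ubiquitin. Dedicated chaperones assemble both, alternative activators can replace the regulatory particle, and interferon induces other catalytic subunits (PSMB8, PSMB9, PSMB10) and the activator pair PSME1 and PSME2 for antigen processing.

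Mature sequences from RefSeq (GRCh38.p14) are shown for 2 of the mimicked microRNAs, because their seeds (bases 2 to 8, in capitals) define the sites searched in the members. MIR23B lies at chr9:95085265-95085287 on the plus strand. The same miR-218-5p sequence comes from MIR218-1 at chr4:20528299-20528319 on the plus strand and MIR218-2 at chr5:168768211-168768231 on the minus strand. miR-124-3p is named only.
miR-23b-3p: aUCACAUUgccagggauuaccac
miR-218-5p: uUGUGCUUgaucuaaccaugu

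Matches to a seed were searched in 3′ UTRs, taken from each gene's longest complete coding transcript in GENCODE release 29 (GRCh38), which covered 18586 listed genes and all 48 members. The miR-23b-3p match AATGTGA stood in 2 of 48 members, PSMA5 and PSMD12, against 18.2% of all genes. The miR-218-5p match AAGCACA stood in 4 of 48 members, PSMB2, PSMC2, PSME4 and PSMG4, against 13.7% of all genes. The match in PSMC2 is an 8mer, with an A after the seed match, and the others are 7mers. Every site is shown in 30 bases or fewer of the transcript strand, with the seed match in capitals, since these are the members with a match to a transfected microRNA. The windows lie at chr1:109399148-109399177 (minus strand) for PSMA5, chr17:67338017-67338046 (minus) for PSMD12, chr1:35600993-35601022 (minus) for PSMB2, chr7:103369000-103369029 (plus) for PSMC2, chr2:53864180-53864209 (minus) for PSME4 and chr6:3263875-3263904 (plus) for PSMG4.
PSMA5, miR-23b-3p site: tgtttgaaagttAATGTGActggaaatatt
PSMD12, miR-23b-3p site: ttgtaagtgttaAATGTGAtaaaagtacat
PSMB2, miR-218-5p site: gtgctgctactaAAGCACAgactatcctgc
PSMC2, miR-218-5p site: atgccaagaccaAAGCACAataatgaatat
PSME4, miR-218-5p site: gaatacagacctAAGCACAgcagtggtcct
PSMG4, miR-218-5p site: attgctgctgggAAGCACAgacctttgcac

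The 2 lines differ in epithelial markers. In the authors' deposited tables for CaSki, the average log2 CPM was 12.05 to 12.08 for KRT5, 9.62 to 9.74 for KRT8, 8.06 to 8.12 for KRT18, 7.74 to 7.85 for CDH1 and 5.70 to 5.97 for EPCAM. In the authors' deposited tables for C-33A, KRT8 was 0.63 to 0.76 and KRT18 0.65 to 0.88, while KRT5, CDH1 and EPCAM lay under 0. The leukocyte marker PTPRC was -3.91 to -3.57 in CaSki tables and 2.45 to 2.67 in C-33A tables, and the fibroblast collagen gene COL1A1 was 1.71 to 1.89 in CaSki tables and -2.15 to -1.87 in C-33A tables. The endothelial marker PECAM1 lay at -2.93 or lower in all tables.

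A few genes carried extreme values in CaSki. The log2 fold change lay under -8 for 189 genes with miR-23b-3p, 178 with miR-124-3p and 180 with miR-218-5p in the authors' deposited tables, and none of them had an FDR under 0.05. No gene lay over 8, and no gene passed 8 in either direction in C-33A. Of the 197 genes in any of these lists, 131 stood at the lowest average log2 CPM of all 3 C-33A tables. On chromosome 6 between 28 and 34 Mb lie 51 of the 197, and on chromosome 17 between 35 and 39 Mb lie 13. The shares of all genes at that level or in these regions are not given here. Genes that every cell uses are among the 197, such as RPS18, a ribosomal protein gene. It stood at -16.09, -17.30 and -14.83 for miR-23b-3p, miR-124-3p and miR-218-5p in the authors' deposited tables.
The members among these genes are PSMB3, a non-catalytic beta subunit on chromosome 17, and the immunoproteasome subunits PSMB8 and PSMB9, neighbours on chromosome 6. In the authors' deposited tables for CaSki with miR-23b-3p, miR-124-3p and miR-218-5p, PSMB3 was listed at -13.45, -14.66 and -12.19. PSMB8 was listed there at -12.70, -12.17 and -12.22, and PSMB9 at -10.58, -10.05 and -10.09 in the authors' deposited tables. All 3 genes stood at the lowest average log2 CPM of every C-33A table. PSMC1, a base ATPase, was listed at -4.75, -4.17 and -4.25 in the authors' deposited tables for CaSki. The lowest p of these 4 genes was 0.0556 in the authors' deposited tables, and none was called. Counts and medians over 45 members include these 4 genes, and the deposited values in CaSki are also summarised over the other 41; the cause of the extreme values was not tested.

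With the miR-23b-3p mimic in CaSki, most proteasome genes lay modestly below the control, and 8 passed the test. Of 45 members, 6 fell and 2 rose at the authors' deposited FDR under 0.05 (edgeR quasi-likelihood F test). The share called was 17.8%, against 9.09% of the 15476 genes that reached an average log2 CPM of 0. The members that fell made up 13.3%, against 3.84% of all genes, and those that rose made up 4.44%, against 5.25%. The median log2 fold change of the members was -0.22, against 0.00 for all genes, and 37 of 45 members lay below 0, against 49.9% of all genes. Without PSMB3, PSMB8, PSMB9 and PSMC1 the median was -0.19, 33 of 41 lay below 0, and the same 8 (19.5%) were called. At an unadjusted p under 0.05 there were 22 members, 18 below 0 and 4 above, or 48.9% against 29.7% of all genes. At an FDR under 0.01, 1 member (2.22%) was called, against 4.76% of all genes. With the p-values adjusted again over the 15476 genes alone, 14 members (31.1%) were called, against 16.4% of all genes. Whether the members' share stood above or below that of all genes thus depended on the threshold. In bulk RNA, fewer cells of a type and less RNA per cell cannot be told apart.

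The activators held both the most negative and the most positive called values. PSME2, the beta subunit of the interferon-induced activator ring, had a ratio of 0.605 between mimic and control, a log2 fold change of -0.73 in the authors' deposited table (SE 0.147, FDR = 2.79e-04). Its partner PSME1 fell, at -0.43 in the authors' deposited table (SE 0.12, FDR = 0.0204). PSME4, an activator linked to the degradation of histones, rose by 0.42 in the authors' deposited table (SE 0.115, FDR = 0.0155). PSME3, the nuclear activator, was 0.35 in the authors' deposited table and was not called (FDR = 0.203). The pair that interferon induces thus lay below 0, and the other activators above it. PSMB10, the immunoproteasome catalytic subunit without extreme values, was -0.53 in the authors' deposited table (SE 0.185, FDR = 0.12) and was not called.

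In the core, 3 members fell. PSMB5, which carries the chymotrypsin-like site that bortezomib inhibits, fell, at -0.43 in the authors' deposited table (SE 0.113, FDR = 0.0114). The non-catalytic beta subunit PSMB4 fell, at -0.41 in the authors' deposited table (SE 0.109, FDR = 0.0113). PSMA3, an alpha subunit, fell, at -0.38 in the authors' deposited table (SE 0.108, FDR = 0.0256). All 3 constitutive catalytic subunits lay below 0, with PSMB6 highest at -0.21 in the authors' deposited table, and so did PSMB1 and PSMB2. Among 6 alpha subunits, 4 lay below 0, and PSMA6 was highest at 0.35 in the authors' deposited table, with an SE of 0.511.

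In the regulatory particle, the ubiquitin receptor PSMD4 fell, at -0.41 in the authors' deposited table (SE 0.11, FDR = 0.0141). PSMD12, a structural subunit of the lid, rose by 0.40 in the authors' deposited table (SE 0.114, FDR = 0.0274), although 6 of 8 lid genes lay below 0. PSMD14, the lid's deubiquitinase, was lowest of the lid at -0.24 in the authors' deposited table (FDR = 0.332). Among the base ATPases, 5 of 6 lay below 0, PSMC1 with its extreme value included, and none was called. PSMC5 was the exception at 0.37 in the authors' deposited table (SE 0.137, FDR = 0.151). PSMD1 and PSMD2, the large scaffold subunits of the base, were -0.10 and -0.04 in the authors' deposited table.

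No assembly factor was called in this comparison, where the background share was 9.09%. The core chaperones PSMG1 to PSMG4 lay between -0.32 (PSMG3) and -0.08 (PSMG4) in the authors' deposited table. The base chaperones lay between -0.15 (PSMD9) and -0.06 (PSMD5) in the authors' deposited table. PSMF1, an inhibitor of the core in vitro, was 0.32 in the authors' deposited table with an SE of 0.32.

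**Figure D1:**
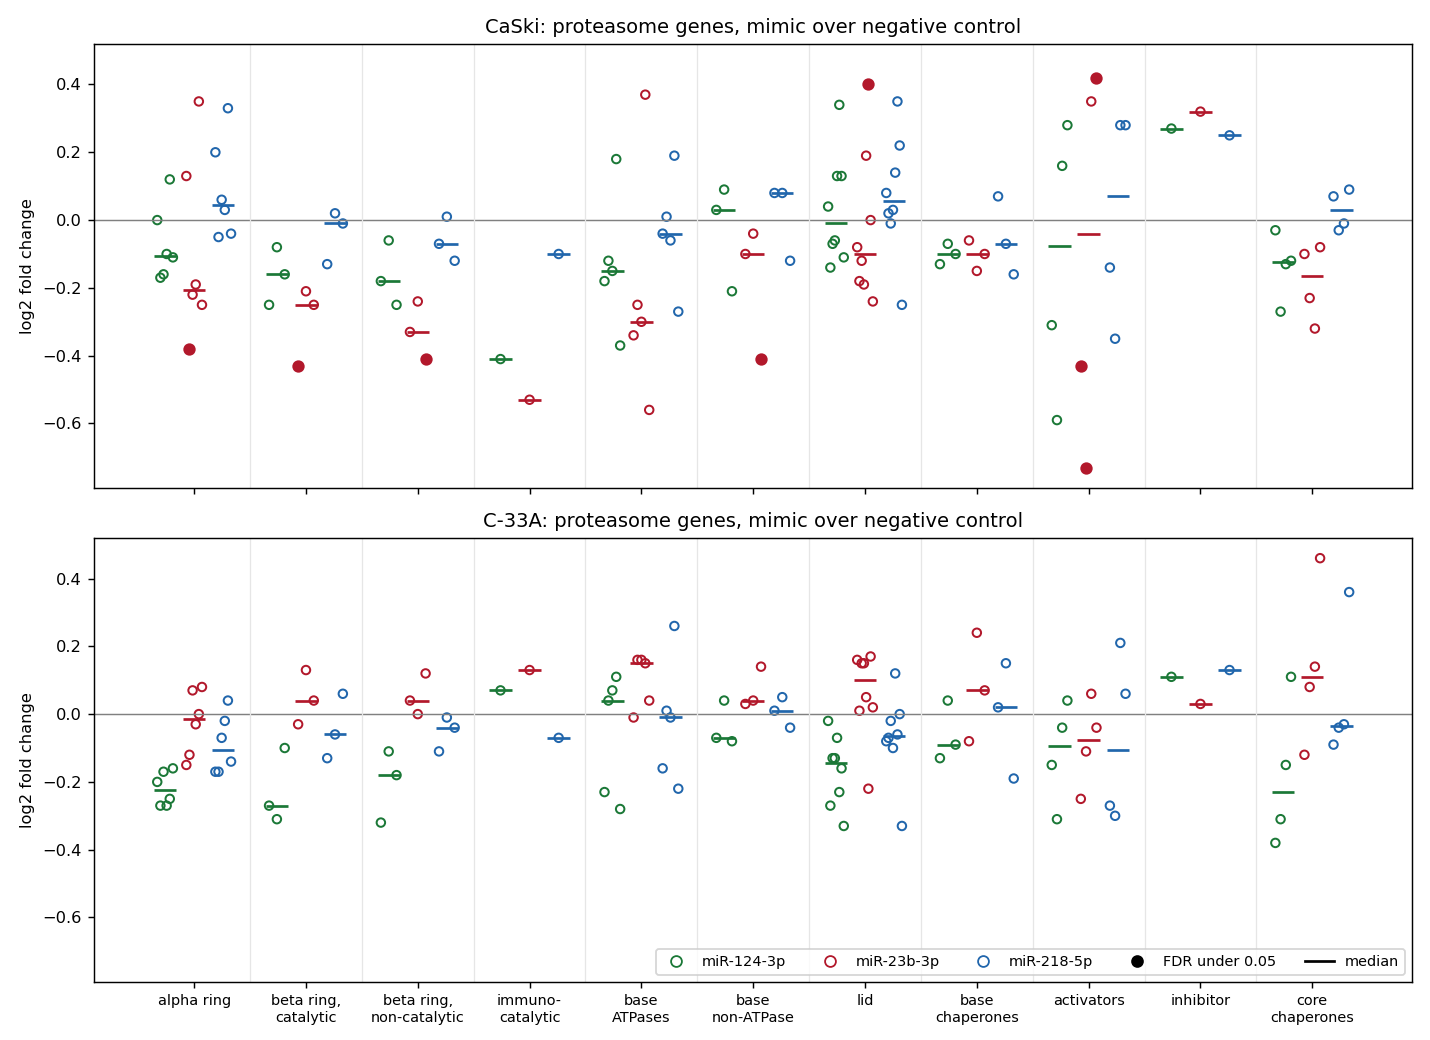
Log2 fold change (mimic over negative control) of the members kept, by role, in CaSki (above) and C-33A (below); colours are the mimics, filled points have an FDR under 0.05 and bars are medians of the points shown, without PSMB3, PSMB8, PSMB9 and PSMC1. The 8 filled points all belong to miR-23b-3p in CaSki, and the lowest, PSME2, is at -0.73.

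Fold changes in this comparison moved with transcript length across all genes. Genes with a longest transcript under 1500 nt had a median log2 fold change of -0.31 and genes of 3000 nt or more of 0.10, computed from the authors' deposited table. The members followed the same order, with medians of -0.35 for 14 short members and -0.06 for 13 long ones in the authors' deposited table, the 4 genes of extreme values left out (-0.41 and -0.07 with them). Across 41 members, without the 4 of extreme values, Spearman's rho between transcript length and fold change was 0.545, a description over genes that share all libraries. The 6 members that fell have transcripts of 964 nt (PSMB4), 970 nt (PSMA3), 1136 nt (PSME1), 1294 nt (PSMB5), 1350 nt (PSMD4) and 1404 nt (PSME2). The 2 that rose have transcripts of 4406 nt (PSMD12) and 7099 nt (PSME4). All 6 were thus among the short members and both that rose among the long ones.

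When a trend on transcript length and GC content, fitted over all genes, was subtracted, 4 members (8.89%) were called at an adjusted p under 0.05, against 10.2% of the 11682 genes that reached an average log2 CPM of 0 and had a transcript in the annotation. The median of the 45 members was then -0.07. PSME2 remained at -0.50 (adjusted p = 0.0148) and PSMD12 at 0.34 (adjusted p = 0.0359), both from the edgeR values of the authors' deposited table. PSMC5 was called at 0.54 (adjusted p = 0.00346) and PSMB2 at -0.31 (adjusted p = 0.0378), both from the edgeR values of the authors' deposited table. The deposited FDR called neither. PSMC5 was also among the 14 members called with the p-values adjusted over the 15476 genes alone. The other 6 of the 8 members with a deposited FDR under 0.05 were not called here. They were PSMA3 at -0.06, PSMB4 at -0.14, PSME1 at -0.19, PSMD4 at -0.20, PSMB5 at -0.22 and PSME4 at 0.23. The adjustment here covered the 11682 genes, while the deposited FDR covers all 61217 listed genes, so the 2 counts are not alike in this. The part of length in the calls beyond this subtraction was not tested.

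**Figure D2:**
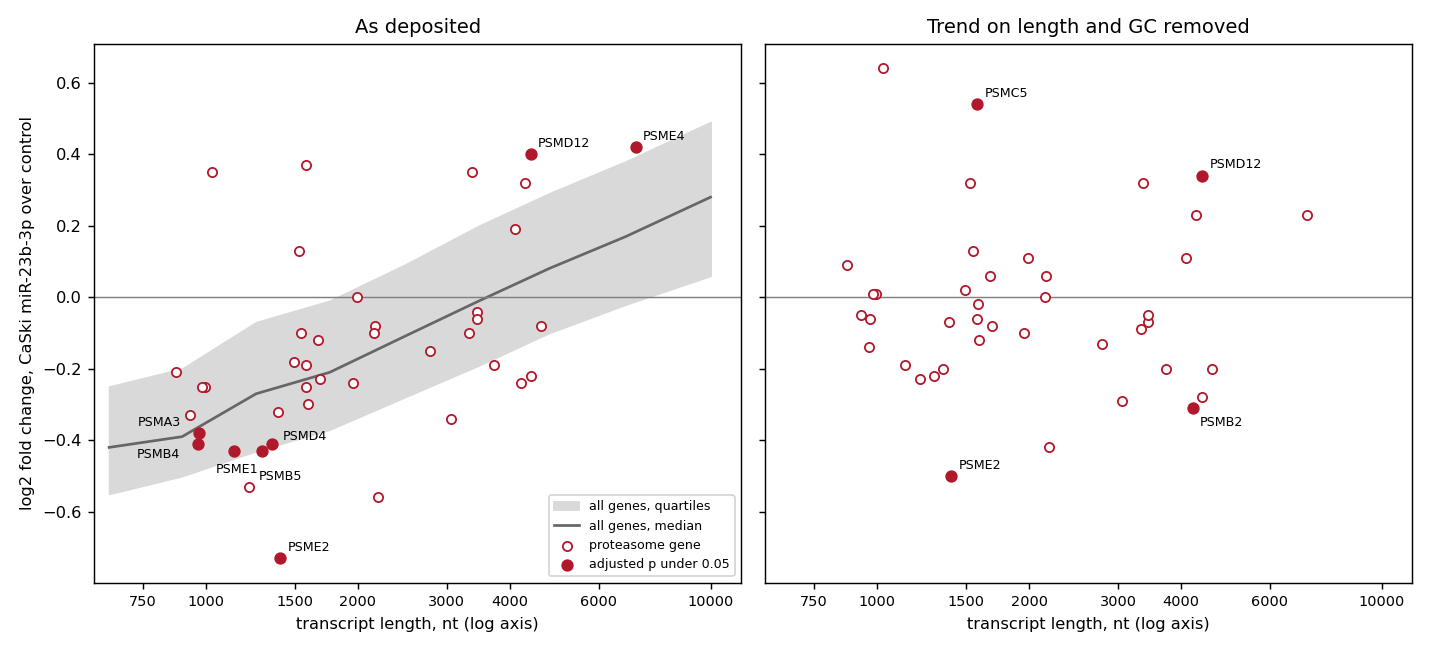
Log2 fold change (miR-23b-3p mimic over negative control, CaSki) against transcript length in nt on a log axis, as deposited (left) and after a trend on length and GC content was subtracted (right); points are 41 members, filled where the adjusted p was under 0.05, and grey shows the median and quartiles of all genes in bins of length. As deposited, 6 short members lie filled below 0 and PSMD12 and PSME4 above it; after subtraction PSME2, PSMB2, PSMD12 and PSMC5 are filled.

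The other mimics left the proteasome genes of CaSki without a call. With miR-124-3p, 0 of 45 members were called by edgeR at the authors' deposited FDR under 0.05, against 1.2% of all genes, and 6 had an unadjusted p under 0.05 (13.3%, against 14.7% of all genes). The median of the members was -0.12, against -0.01 for all genes, and 33 lay below 0 (73.3%, against 52% of all genes). Without the 4 genes of extreme values, 29 of 41 lay below 0, with a median of -0.11. The lowest p belonged to PSME2 at -0.59 in the authors' deposited table (SE 0.208, FDR = 0.398), followed by PSMD12 at 0.34 (FDR = 0.673) and PSME1 at -0.31 (FDR = 0.817). With miR-218-5p, 0 of 45 members were called by edgeR, against 0.0978% of all genes, and 4 had an unadjusted p under 0.05 (8.89%, against 6.85%). The median of the members was -0.01, against 0.01 for all genes, and 23 lay below 0 (51.1%, against 48.4% of all genes). Without the 4 genes of extreme values, 19 of 41 lay below 0, with a median of 0.01. The lowest p belonged to PSMD12 at 0.35, PSME3 at 0.28 and PSME4 at 0.28 in the authors' deposited table, each with an FDR of 1.

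With miR-124-3p the activators ran from -0.59 (PSME2) to 0.28 (PSME4) in the authors' deposited table. With miR-124-3p the constitutive catalytic subunits ran from -0.25 (PSMB5) to -0.08 (PSMB6) and the core chaperones from -0.27 (PSMG2) to -0.03 (PSMG1) in the authors' deposited table, all below 0. The lid ran from -0.14 (PSMD6) to 0.34 (PSMD12) and the alpha subunits from -0.17 (PSMA3) to 0.12 (PSMA6) in the authors' deposited table. With miR-218-5p the core chaperones ran from -0.03 (PSMG2) to 0.09 (PSMG4) and the constitutive catalytic subunits from -0.13 (PSMB5) to 0.02 (PSMB6) in the authors' deposited table. The activators ran from -0.35 (PSME2) to 0.28 (PSME3) there and the lid from -0.25 (PSMD14) to 0.35 (PSMD12) in the authors' deposited table.

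Transcript length moved with the fold changes of these comparisons too. The same 14 short and 13 long members are used here. With miR-124-3p the short members had a median of -0.18 and the long ones 0.03 in the authors' deposited table, beside -0.20 and 0.06 for all genes. With miR-218-5p the short members had a median of -0.06 and the long ones 0.08 in the authors' deposited table, beside -0.10 and 0.06 for all genes. After subtraction of the trend, the medians of the 45 members were 0.02 with miR-124-3p and 0.03 with miR-218-5p.

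The 3 mimics of a line share their control libraries, so their values are set side by side and not counted as independent. For PSME2 the authors' deposited tables for CaSki gave -0.73, -0.59 and -0.35 with miR-23b-3p, miR-124-3p and miR-218-5p. For PSMD12 the authors' deposited tables gave 0.40, 0.34 and 0.35 in the same order, and for PSME4 0.42, 0.28 and 0.28. PSMB5 was -0.43, -0.25 and -0.13 and PSMB4 -0.41, -0.25 and -0.12 in the authors' deposited tables. Each of these 5 genes had its largest absolute value with miR-23b-3p. All 5 were taken from the 8 members called with that mimic, a choice that favours a largest value there. The difference between mimics was not tested.

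In C-33A no member was called with any mimic. With miR-124-3p, 0 of 42 members were called by edgeR, against 0.634% of all genes, and 1 had an unadjusted p under 0.05 (2.38%, against 9.57%). The members' median was -0.14, against -0.004 for all genes. Below 0 lay 33 of 42 members (78.6%, against 50.8% of all genes), including all 6 alpha subunits and all 8 lid subunits. PSMG1, a core assembly chaperone, had the lowest p at -0.38 in the authors' deposited table (SE 0.178), followed by PSMD14 at -0.33 and PSMB1 at -0.32. Their FDR was 1 in the authors' deposited table. The constitutive catalytic subunits ran from -0.31 (PSMB6) to -0.10 (PSMB7) and the base ATPases from -0.28 (PSMC6) to 0.11 (PSMC5) in the authors' deposited table. Short members had a median of -0.21 and long ones, without PSMC1, -0.07 in the authors' deposited table, beside -0.15 and 0.04 for all genes. After subtraction of the trend on length and GC content the members' median was -0.04.

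With miR-23b-3p in C-33A, 0 of 42 members were called by edgeR, against 0.191% of all genes, and 1 had an unadjusted p under 0.05 (2.38%, against 4.23%). The members' median was 0.04, against 0.01 for all genes, and 14 lay below 0 (33.3%, against 47.6% of all genes). The core chaperone PSMG4 had the lowest p at 0.46 in the authors' deposited table (SE 0.192), followed by PSME1 at -0.25 and the base chaperone PSMD9 at 0.24. The alpha subunits ran from -0.15 (PSMA1) to 0.08 (PSMA7) and the lid from -0.22 (PSMD12) to 0.17 (PSMD13) in the authors' deposited table. Here the short members had a median of 0.04 and the long ones, without PSMC1, 0.03, beside 0.05 and 0.01 for all genes in the authors' deposited table. With miR-218-5p in C-33A, 0 of 42 were called by edgeR, against 0.299% of all genes, and 2 had an unadjusted p under 0.05 (4.76%, against 5.05%). The members' median was -0.04, the same as for all genes, and 28 lay below 0 (66.7%, against 58.3% of all genes). PSMD14 was -0.33, PSMG4 0.36 and PSME2 -0.30 in the authors' deposited table, all with an FDR of 1. The base ATPases ran from -0.22 (PSMC6) to 0.26 (PSMC5) and the activators from -0.30 (PSME2) to 0.21 (PSME3) in the authors' deposited table. With miR-218-5p the short members had a median of -0.07 and the long ones, without PSMC1, 0.02. The medians for all genes were -0.08 and -0.02 in the same order.

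**Figure D3:**
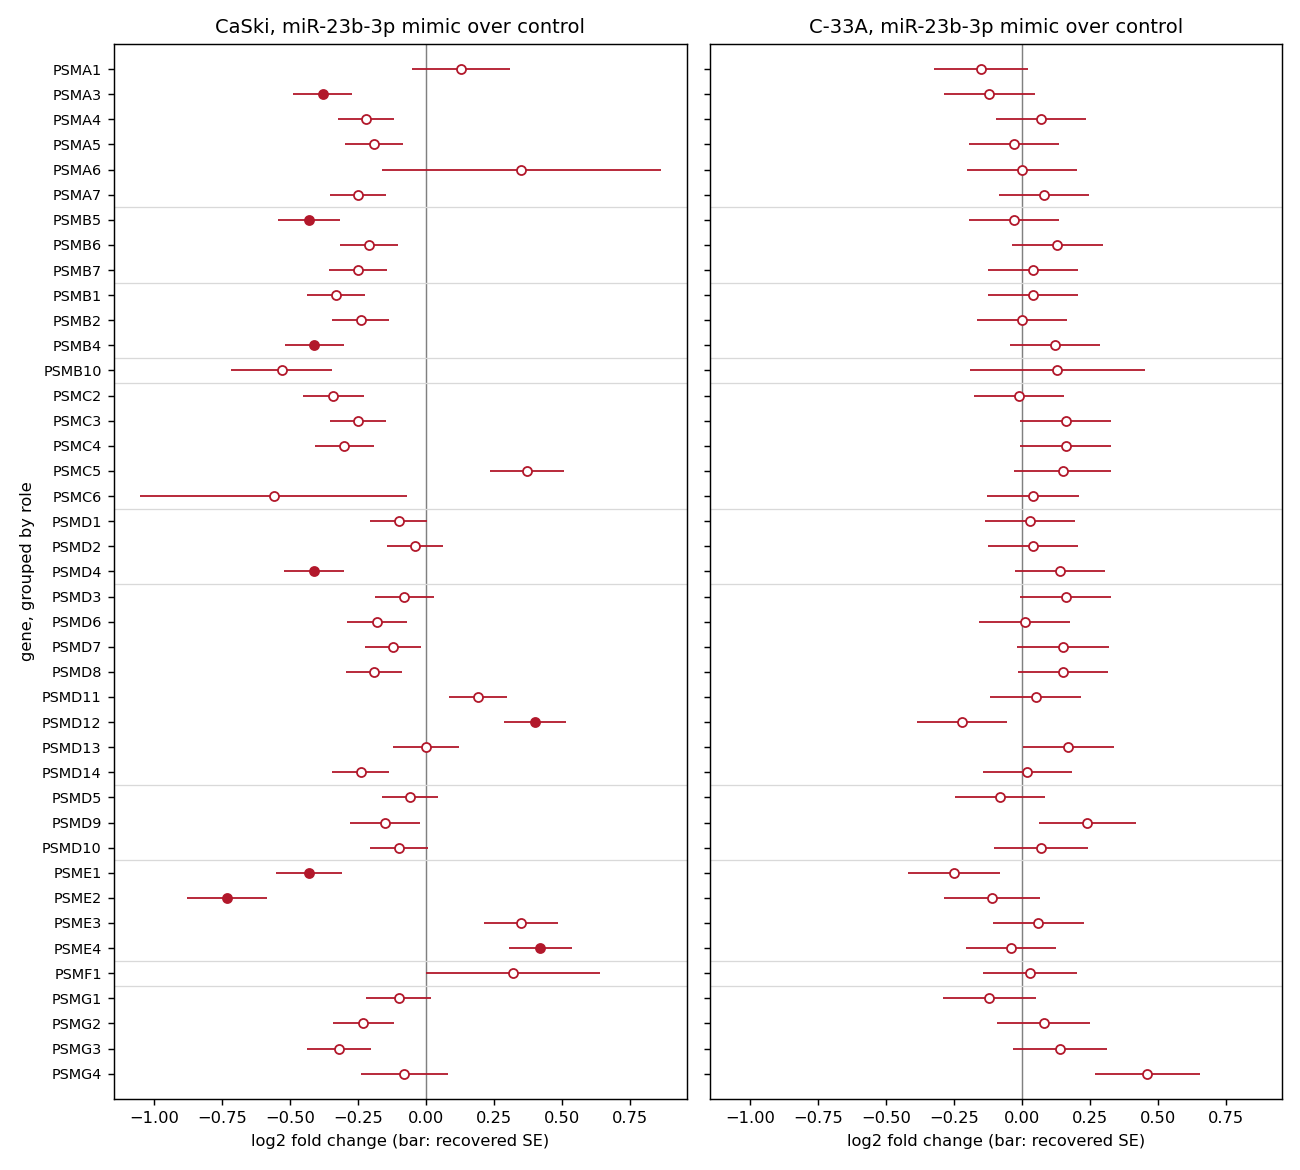
Log2 fold change (miR-23b-3p mimic over negative control) of each member in CaSki (left) and C-33A (right), grouped by role, with bars of 1 recovered SE and filled points where the FDR was under 0.05. Most CaSki points lie left of 0, while C-33A points lie around 0, with PSMG4 highest at 0.46.

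The difference between the lines was tested directly, as CaSki minus C-33A with the SEs recovered from the authors' deposited tables. No member differed at an adjusted p under 0.05 for any microRNA. For miR-23b-3p, 220 of 12905 genes differed (1.7%), and 0 of 42 members. At an adjusted p under 0.1, 1 member did, against 4.25% of all genes. The members' differences had a median of -0.26, against 0.01 for all genes, and 32 of 42 lay below 0. At an unadjusted p under 0.05 there were 10 members, or 23.8% against 15.6% of all genes. PSMD12 came closest, at 0.40 in CaSki and -0.22 in C-33A, a difference of 0.61 (SE 0.201, adjusted p = 0.0778, normal test with Benjamini-Hochberg adjustment over all genes, from the edgeR values of the authors' deposited tables). PSMD4 was -0.41 in CaSki and 0.14 in C-33A, and PSMB4 -0.41 and 0.12 in the same order, in the authors' deposited tables. PSME2 was -0.73 in CaSki and -0.11 in C-33A in the authors' deposited tables, a difference of -0.62 with an SE of 0.23. For miR-124-3p 0 of 12970 genes and for miR-218-5p 0 of 12902 genes differed in this test, with 1 and 0 members at an unadjusted p under 0.05. Those shares of members were 2.38% and 0%, against 2.51% and 1.56% of all genes. Fewer of all genes passed than that threshold would let through with no difference at all, so the test was conservative for both microRNAs. A count of 0 there does not show that the lines responded alike.

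The members with a seed match showed no common direction. PSMD12, with a miR-23b-3p match, is the lid gene that rose with that mimic in CaSki and was -0.22 in C-33A in the authors' deposited table. PSMA5, an alpha subunit with the other match, was -0.19 in CaSki (SE 0.106) and -0.03 in C-33A (SE 0.166) with miR-23b-3p in the authors' deposited tables. With miR-218-5p, PSMC2, the ATPase with the 8mer, was -0.04 in CaSki (SE 0.139) and -0.16 in C-33A (SE 0.161) in the authors' deposited tables. PSMB2 was 0.01 in CaSki and -0.01 in C-33A, PSME4 0.28 and 0.06, and PSMG4 0.09 and 0.36 in the same order, in the authors' deposited tables. None of these miR-218-5p values was called.

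Promoters were searched for a pair of motifs known for proteasome and antigen-processing genes. The window ran from 250 bases before to 50 bases after the gene start of RefSeq (GRCh38.p14), on both strands, and covered 42 members and 27305 genes. These 42 are not the 42 members kept in C-33A, since PSMB3, PSMB8 and PSMB9 are among them. The antioxidant response element core, TGACNNNGC, stood in 15 of 42 members (35.7%), against 16.1% of all genes. The pair of GAAA repeats in the interferon-stimulated response element, which are 2 bases of any kind apart, stood in 7 of 42 members (16.7%), against 4.38% of all genes. The match is a description of letters. PSMA4, PSME1 and PSME2 hold both motifs. Windows are shown for the called members with a match and for PSMB10, on the gene's strand with the match in capitals; where the motif lies on the opposite strand its reverse complement is in capitals. They lie at chr14:24136190-24136217 (plus strand) for PSME1, chr14:24146620-24146647 (minus) for PSME2, chr16:67936853-67936880 (minus) for PSMB10, chr1:151399496-151399523 (plus) for PSMB4, chr17:67366725-67366751 (minus) for PSMD12 and chr2:53971010-53971036 (minus) for PSME4. The TGACNNNGC windows lie at chr14:24136099-24136125 (plus) for PSME1 and chr14:24146768-24146794 (minus) for PSME2.
PSME1, GAAA pair on the opposite strand: ccctaccgcTTTCGCTTTCccttcgcgg
PSME2, GAAA pair: ctggggagtGAAAGCGAAAgcccgggcg
PSMB10, GAAA pair: ggtaaaggcGAAAGCGAAAgcaggaagt
PSMB4, GAAA pair: cgtctacagGAAAAAGAAAgaaatgaca
PSMD12, TGACNNNGC: gacaaaaccTGACGCTGCaggctggag
PSME1, TGACNNNGC: tggcagggcTGACCCCGCctcctccat
PSME2, TGACNNNGC: cctggactgTGACCCAGCcagcaccgc
PSME4, TGACNNNGC on the opposite strand: ccggcggctGCAGCGTCAccagcagag

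PSME1 and PSME2, which fell with miR-23b-3p in CaSki, and PSMB10, which was -0.53 and not called, each hold the GAAA pair within 50 bases of the gene start. PSMB4, which also fell, holds it from position -68 relative to the gene start. The other members with it are PSMA4, PSMB8 and PSMG4, and PSMA4 was -0.22 and PSMG4 -0.08 in the authors' deposited table. PSMA3, PSMB5 and PSMD4 fell as well and are not among the members with the GAAA pair. In that comparison 37 of 45 members lay below 0, and a link between motif and fold change was not tested.

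The levels of the members are given per kb of the longest transcript, with no test. The authors' average log2 CPM per table was averaged over the 3 tables of a line and reduced by the log2 of the transcript length in kb; the lines were normalized separately, so they are set side by side only. The median level was 5.63 over 45 members in CaSki and 5.75 over 42 members in C-33A. PSMA7, an alpha subunit, had the highest level in both lines, at 8.98 in CaSki and 9.34 in C-33A. PSMB4 followed at 8.58 in CaSki and 9.01 in C-33A. The constitutive catalytic subunits lay between 6.57 and 7.63 in CaSki and between 7.09 and 7.67 in C-33A. The immunoproteasome subunit PSMB10 was far below them, at 3.42 in CaSki and 1.27 in C-33A. The core chaperone PSMG4 was lowest of the assembly factors, at 2.13 in CaSki and 2.43 in C-33A. The lid genes, which stand in the complex in equal number, ranged from 4.74 (PSMD12) to 7.36 (PSMD8) in CaSki and from 4.69 (PSMD11) to 6.88 (PSMD14) in C-33A. PSMD12 and PSMD11 have the longest transcripts of the lid, at 4406 and 4098 nt, and which transcript the cells express was not determined. Without division by length, PSMD6 was lowest of the lid in CaSki at 6.19 and PSMD7 in C-33A at 6.52.

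**Figure D4:**
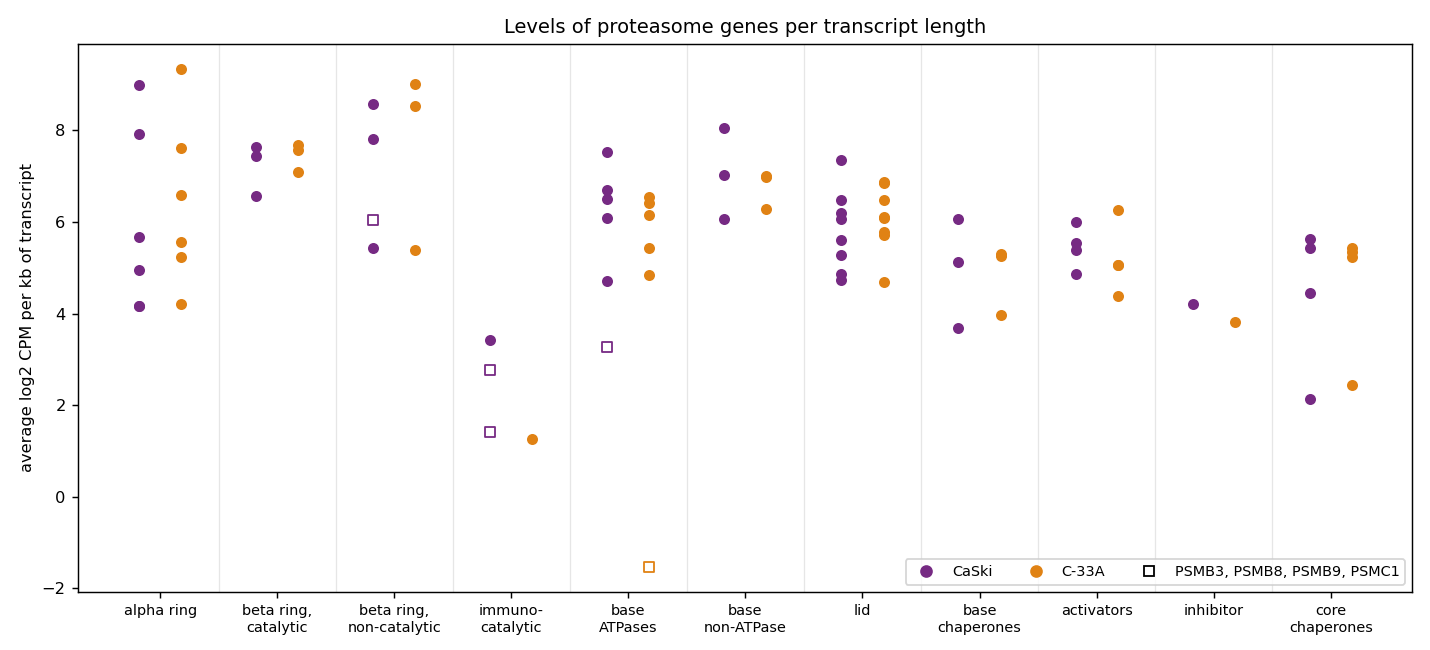
Average log2 CPM per kb of transcript for each member kept, by role, in CaSki (left of each pair) and C-33A (right), with open squares for PSMB3, PSMB8, PSMB9 and PSMC1. PSMA7 is highest in both lines, at 8.98 in CaSki and 9.34 in C-33A. The immunoproteasome subunits have the lowest median, which is the value of PSMB8, an open square, in CaSki and of PSMB10 alone in C-33A. PSMC1 in C-33A is the lowest point, at -1.53.

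Pseudogene copies can share reads with their parent gene. Of 42 listed PSM pseudogene symbols, 6 had an average log2 CPM of 0 or more in any table. PSMC1P1 stood above PSMC1 itself, at 7.52 against 5.42 in CaSki and 6.04 against 0.63 in C-33A, in the authors' deposited tables. PSMA6P1 stood above PSMA6, at 4.67 against 4.20 in CaSki and 5.17 against 4.24 in C-33A, in the authors' deposited tables. PSMC1 and PSMA6 are therefore uncertain. PSME2 was 5.87 in CaSki tables, where its copies PSME2P2 and PSME2P1 reached 2.34 and 0.59. With miR-23b-3p in CaSki the log2 fold change was 0.05 for PSME2P2 and 1.01 for PSME2P1 in the authors' deposited table, beside -0.73 for PSME2.

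Other genes of the ubiquitin-proteasome pathway came from a list of 29, of which 29 were read in CaSki and 28 in C-33A. With miR-23b-3p in CaSki, 2 of 29 fell and 3 rose at the authors' deposited FDR, against 3.84% and 5.25% of all genes. DDI2, the protease that activates the proteasome transcription factor NFE2L1, rose by 0.80 in the authors' deposited table (SE 0.15, FDR = 5.33e-05). UBQLN2, a shuttle factor for ubiquitinated proteins, rose by 0.76 in the authors' deposited table (SE 0.144, FDR = 6.90e-05). The polyubiquitin gene UBB fell, at -0.37 in the authors' deposited table (SE 0.107, FDR = 0.0274). After subtraction of the length and GC trend, 4 of these 5 were called with adjustment over the 11682 genes. UBB was then -0.15 (adjusted p = 0.401), DDI2 0.52 (adjusted p = 0.0119) and UBQLN2 0.69 (adjusted p = 2.29e-04), from the edgeR values of the authors' deposited table. NFE2L1 itself was 0.00 in the authors' deposited table (SE 0.105).

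No gene of the list was called by edgeR in the other 5 comparisons. In CaSki with miR-124-3p the lowest p belonged to UBQLN2 at 0.61, and with miR-218-5p to DDI2 at 0.45 and UBQLN2 at 0.53, in the authors' deposited tables. In C-33A they were POMP, the core maturation factor, at -0.39 and the deubiquitinase UCHL5 at -0.33 with miR-124-3p in the authors' deposited table. With miR-23b-3p in C-33A they were DDI2 at 0.44 and the ubiquitin receptor ADRM1 at 0.30, and with miR-218-5p DDI2 at 0.46 and UCHL5 at -0.40, in the authors' deposited tables. UBB was left out in C-33A, where its average log2 CPM lay at -3.42 to -3.19 in the authors' deposited tables.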

How the data were processed

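The data are polyA RNA sequencing of 23 samples in 8 groups, given as 1 table for each mimic of each line against that line's control. Per the submitters' processing notes, reads were handled with STAR 2.7.10b, FastQC 0.73, edgeR 3.36.0 and featureCounts 2.0.3 on GRCh38 (hg38). Each deposited table, per the file headers, lists an F score with its p-value and FDR, beside the average log2 CPM and the log2 fold change; genes were not filtered. The FDR equals a Benjamini-Hochberg adjustment over all listed genes (largest difference 1.58e-13). How strand was treated in counting is not stated in the labels.

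Members and lists were chosen with earlier results of these data known. The planned count model needs values per sample, so the deposited statistics were used. An SE was recovered by dividing the absolute fold change by the normal quantile of its deposited p. A normal test of the difference compared the lines. The trend on transcript length and GC content was a spline fit with 5 degrees of freedom per term over genes that reached an average log2 CPM of 2, subtracted from the fold change with SEs kept. Its use for calls of members and pathway genes, and leaving out the 4 extreme genes, were chosen after seeing the data. Scripts ran in Python 3.11.15 with pandas 2.3.3, scipy 1.17.1 and statsmodels 0.14.6. The line test was checked on data simulated from the same normal model, with differences larger than those of the members other than PSMC1. That check does not show how often the test finds differences as small as theirs. Members were named where called, among the 3 lowest p of a comparison, at the end of the range of a role group, or with a seed match. From the pathway list, the genes called or the 2 lowest p were named, except that the values of some are not reported here though the counts include them; NFE2L1 and members named for their transcripts, levels or motifs were chosen after their values were seen. Columns of values per sample that were not used number 0. Alternatives are in the closing section.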

Additional observations from a re-analysis of the deposited data

How the results depend on the processing

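In CaSki with miR-23b-3p, 8 members (17.8%) were called by the deposited FDR, against 9.09% of all genes. There was 1 (2.22%) at an FDR under 0.01, against 4.76% of all genes. After the trend on length and GC content was removed there were 4 (8.89%), against 10.2% of all genes. The adjustment there covered 11682 genes instead of all listed genes. Adjustment over only the 15476 genes that reached an average log2 CPM of 0 gave 14 members, 11 that fell and 3 that rose, and held all 8. In that adjustment 2542 genes were called. The members' median was -0.069 with the trend removed, against -0.216 as deposited. In CaSki with miR-218-5p it was 0.168 against the mean of the other 2 mimics, in which the controls cancel, and -0.007 as deposited. Of the pathway list, 3 of 29 genes were called with miR-23b-3p in CaSki at an FDR under 0.01, where 4.76% of all genes were. Under 0.05 there were 5 of 29, where 9.09% of all genes were called. Between lines, 1 of 42 members differed for miR-23b-3p at an adjusted p under 0.1, where 4.25% of all genes did. Under 0.05 there were 0, where 1.7% of all genes differed. The cause of these shifts was not tested. In the other comparisons the counts of members and pathway genes were 0 in every setting run, as in the main form. In CaSki with miR-23b-3p, 10 members were called at an FDR under 0.1 and 8 without the limit on average log2 CPM. Of the pathway list, 6 genes were called there at an FDR under 0.1. With the trend removed 5 of 29 were, not all the same genes, against 10.2% of all genes. The shares of all genes at an FDR under 0.1 and without the limit are not given here, so those counts cannot be set against them. The remaining counts between lines were 0. The members' medians ranged over the settings from -0.216 to -0.069 with miR-23b-3p, -0.118 to 0.015 with miR-124-3p and -0.015 to 0.168 with miR-218-5p in CaSki. In C-33A they ranged from 0.029 to 0.143, -0.151 to -0.044 and -0.039 to 0.016 in the same order of mimics. No paired analysis was possible because the deposited columns carry no values per sample; for that reason leave-one-out fits, a replicate block and DESeq2 were not run. Depth per sample is unknown, so no limit from depth can be given.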
